A study of Homo sapiens with 10 samples.

Results

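The complement system was followed here through 8 genes, C1R, C1S, C3, CFB, CFI, CD46, CD55 and CD59, out of 62710 entries in the gene table. They were taken by name, as components and regulators of one cascade, and the list was chosen by the measured 4.93-fold difference of CFI between knockout and wild-type cells. That difference is therefore described below without a test, and so are the other 7 genes in the same comparison.

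RNA was sequenced in 10 libraries of H441 cells, a human cell line from a lung adenocarcinoma, kept in RPMI medium with 10% serum. Wild-type cells (WT) gave 3 libraries. Cells of the same line with TET1 removed by CRISPR-Cas9 (KO) gave 3, and the labels do not say whether they are 1 clone. Cells given a plasmid with full-length human TET1 (OE, a transient overexpression) gave 2. A further 2 libraries carry the word Lipo in their titles while their treatment label reads wild type without treatment, and the word is not explained. Lipo served as the control of OE. No group is labelled as transfected with a plasmid lacking TET1, so an effect of TET1 and one of transfection with a plasmid cannot be told apart. The labels do not say whether libraries of a group came from separate cultures, so the p-values measure the spread between these libraries alone.

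Complement is a chain of plasma and membrane proteins that tags and lyses target cells. C1R and C1S are the proteases of the first component of the classical pathway, which is started by bound antibody. CFB carries the protease of the alternative pathway. Both pathways cleave C3, whose larger fragment attaches to surfaces, and cleavage of C5 then starts the membrane attack complex. Host cells are protected by regulators. CFI is a plasma protease that inactivates the attached C3 and C4 fragments, and it needs a cofactor to do so. CD46 is such a cofactor on the cell membrane, CD55 speeds the decay of the enzymes that cleave C3 and C5, and CD59 blocks assembly of the attack complex. The liver makes most circulating complement, and epithelial cells of the lung make some locally. TET1 oxidises methylated cytosine, which in mammals lies mostly in CG dinucleotides.

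The 2 members that were lower in OE, CFI and CD46, differ in how many CG dinucleotides lie upstream of their start sites, and these stretches are shown for that contrast. Both are the 250 bases before the start given by RefSeq in GRCh38.p14, written 5′ to 3′ on the gene's own strand with each CG in capitals. CFI lies at chr4:109802000-109802249 on the minus strand and CD46, with the first of its 2 starts, at chr1:207751788-207752037 on the plus strand.
CFI: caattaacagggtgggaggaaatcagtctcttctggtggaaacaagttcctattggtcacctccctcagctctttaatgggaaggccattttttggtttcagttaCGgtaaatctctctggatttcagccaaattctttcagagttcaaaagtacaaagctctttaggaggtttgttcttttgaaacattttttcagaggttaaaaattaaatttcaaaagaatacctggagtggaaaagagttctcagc
CD46: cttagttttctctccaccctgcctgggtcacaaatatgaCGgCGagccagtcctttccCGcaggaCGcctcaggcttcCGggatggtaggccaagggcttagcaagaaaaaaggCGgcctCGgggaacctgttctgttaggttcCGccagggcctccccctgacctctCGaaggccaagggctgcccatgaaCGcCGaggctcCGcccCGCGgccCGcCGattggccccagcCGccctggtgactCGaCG
The CFI stretch holds 1 CG and the CD46 stretch 19. In the whole 300-base windows, which add 50 bases after the start, CFI holds 2 CG dinucleotides and 18.2% of the 35116 windows in the RefSeq table hold as few or fewer. CD46 holds 25 in either of its windows (69.9% hold as few or fewer), CD55 holds 19 (58.8%), and the median window holds 14. Windows were found for 6 of the 8 members. C3 and C1S, the members higher in OE, had none, so they are not covered here or in the search below. Those of CFB held 7, of C1R 10 and 8, and of CD59 18, 22, 1 and 1. Methylation was not measured in these data.

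The windows were also searched on both strands for the interferon response element core (GAAA, any 2 bases, GAAA), the gamma-activated site (TTC, any 3 bases, GAA) and the NF-kB consensus. None of the 3 was found in the windows of CFI, CD46 or CD55. CFB held the interferon response element core, its first base 140 bases before the start, and the gamma-activated site at 92 bases before it. CD59 held the gamma-activated site at 128 bases before its first start, a match that the overlapping window of its second start shares, and C1R held it at 86 bases before its second start. Of all windows, 3.57% held the interferon response element core, 7.66% the gamma-activated site and 5.91% the NF-kB consensus.

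Each library held between 20994462 and 25981097 counted reads. TET1 itself had 2, 7 and 0 reads in WT 1 to 3 and 4, 0 and 8 in KO 1 to 3, so a loss of its RNA in KO was not detectable at this depth, and where in the gene the edit lies is not given in the sources used here. In OE it had 17883 and 20805 reads, against 0 and 1 in Lipo 2 and 3. All 7 epithelial markers looked at exceeded 1 CPM in every library (CPM, the read count scaled to library size), and 6 of 8 distal lung markers did. The distal lung markers SFTPC and SCGB3A2 reached at most 0.0866 and 0.260 CPM. Hepatocyte markers summed to at most 1.01 CPM in any library, with TTR at 0.

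Among the 6 members tested, the membrane regulators stood far above the soluble components in WT, per kilobase of exon. Levels in RPKM, which is CPM divided by exon length in kilobases, were 187 ± 11.6 for CD55, 41.3 ± 2.23 for CD46 and 15.8 ± 2.07 for CD59 (SD, n = 3). The soluble CFI reached 1.33 ± 0.328, C3 0.709 ± 0.136 and C1S 0.0875 ± 0.0371. No neighbours in this order overlapped between libraries, and the order was the same in KO and Lipo. Outside the members the split did not hold in WT. C4BPB, of the soluble C4b-binding protein, had 10.7 ± 0.605 RPKM, and the membrane regulator SUSD4 0.644 ± 0.0801. In OE the order of the 6 members differed. C3, at 16.7 ± 0.130 RPKM (n = 2), overlapped CD46, at 16.5 ± 0.121, behind CD55 at 126 ± 2.11. CD59 followed at 10.2 ± 0.977, and C1S, at 2.60 ± 0.107, stood above CFI, at 0.526 ± 0.157. All 6 of these genes passed the filter on low reads, and would have passed without the group where each is highest. C1R and CFB did not pass and are described last.

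**Figure D1:**
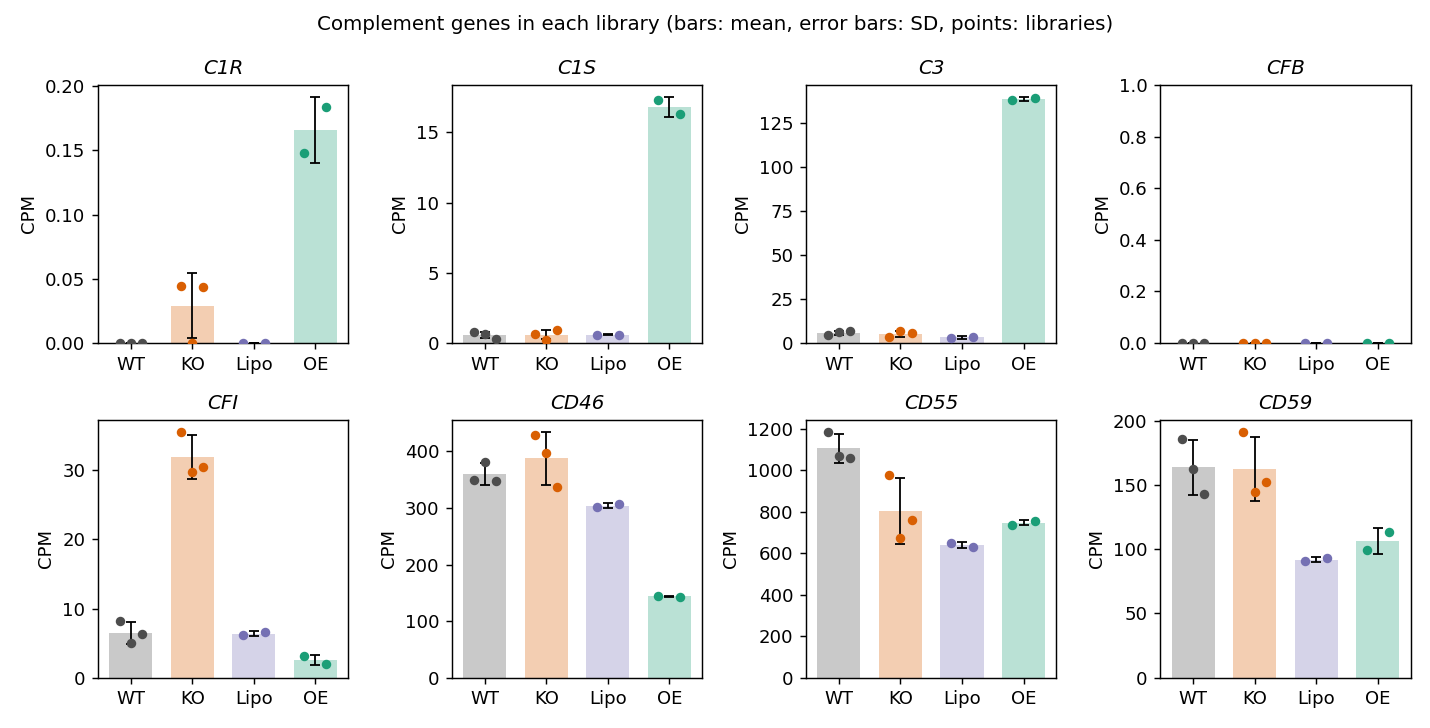
Level of each of the 8 complement genes in CPM (reads scaled to library size; vertical axes start at 0 and differ between panels) in the WT, KO, Lipo and OE libraries. Bars are means, error bars SD and points single libraries: C1S and C3 stand high in OE alone, CFI is highest in KO and lowest in OE, CD46 is lowest in OE, and CD55 and CD59 are lowest in Lipo.

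C3 and C1S were higher in OE than in Lipo, and CFI and CD46 were lower, while CD55 and CD59 did not pass the test. That made 2 higher, 2 lower and 2 not called among the 6 members tested, beside 12.3% of all 15832 tested genes called in this comparison (6.79% higher and 5.53% lower). The members, and the other complement genes below, were listed with earlier results of these data known. Their counts beside all genes, here and below, may therefore not be independent of that choice. The median log2 fold change of the 6 was 0.22, against -0.01 over all genes. The groups did not overlap for any of the 6, which with 2 libraries a group held for 65.6% of all tested genes.

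C3 (chromosome 19, 6677704 to 6730562, minus strand, GRCh38) is the hub of the cascade. It had 138 and 140 CPM in OE 1 and 2 (2801 and 3036 reads) and 2.62 and 3.56 CPM in Lipo 2 and 3. Both OE libraries lay far above every other library, since WT 1 to 3 had 4.63, 6.30 and 6.79 CPM and KO 1 to 3 had 3.53, 6.52 and 5.37 CPM. The fitted difference from Lipo was 45.0-fold (95% interval 29.4 to 68.8; log2 5.49, SE 0.29; edgeR adjusted p = 6.10e-09). Against WT in place of Lipo the log2 difference was 4.55. The annotation of C3 overlaps that of GPR108 on the same strand, and GPR108 moved by 0.35 on the log2 scale (adjusted p = 0.270).

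C1S (chromosome 12, 6988259 to 7071032, plus strand) encodes the protease that cleaves C4 and C2. It had 17.3 and 16.3 CPM in OE 1 and 2 (351 and 355 reads), and 0.541 and 0.593 CPM in Lipo 2 and 3 with 13 reads in each. WT 1 to 3 had 0.779, 0.611 and 0.307 CPM and KO 1 to 3 had 0.618, 0.234 and 0.909 CPM, so C1S had between 6 and 21 reads in every library outside OE. The fitted difference between OE and Lipo was 29.4-fold (14.6 to 59.5; log2 4.88, SE 0.48; adjusted p = 5.93e-06). LPCAT3 and EMG1 overlap the annotated span of C1S, and whether counting used strand is not given in the sources used here. In OE against Lipo they moved by -0.47 (adjusted p = 0.0546) and 0.45 (0.193) on the log2 scale.

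CD46 (chromosome 1, 207752057 to 207795513, plus strand), the membrane cofactor of CFI, had 145 and 143 CPM in OE and 301 and 307 CPM in Lipo. All other libraries lay above both OE libraries, with 349, 382 and 348 CPM in WT 1 to 3 and 429, 396 and 337 CPM in KO 1 to 3. CD46 was 2.11-fold lower in OE than in Lipo (1.72 to 2.60; log2 -1.08, SE 0.14; adjusted p = 1.16e-04).

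CFI (chromosome 4, 109740694 to 109802179, minus strand), the protease that CD46 assists, had 3.11 and 2.02 CPM in OE and 6.16 and 6.61 CPM in Lipo. The annotation of CFI overlaps that of AC126283.2, which had no read in any library. CFI was 2.49-fold lower in OE (1.66 to 3.74, log2 -1.32, SE 0.27, edgeR adjusted p = 0.00565). The call rested on OE 2: without it the log2 difference was -1.05 and the adjusted p 0.0944.

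CD55 (chromosome 1, 207321376 to 207386804, plus strand) and CD59 (chromosome 11, 33703010 to 33736491, minus strand) are both held in the membrane by a lipid anchor. CD55 had 738 and 755 CPM in OE against 651 and 628 in Lipo, a log2 difference of 0.22 (95% interval -0.12 to 0.56; adjusted p = 0.412). CD59 had 99.0 and 113 CPM against 90.4 and 93.4, a log2 difference of 0.21 (-0.15 to 0.56; adjusted p = 0.474). The OE libraries were the higher pair for both genes, but the intervals include 0. Fitted with the OE and Lipo libraries alone, both genes were called higher (adjusted p = 1.03e-04 and 0.0242). Against WT in place of Lipo both were lower, by -0.57 for CD55 (adjusted p = 0.0120) and -0.62 for CD59 (0.00899) on the log2 scale, so the control decides their direction.

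**Figure D2:**
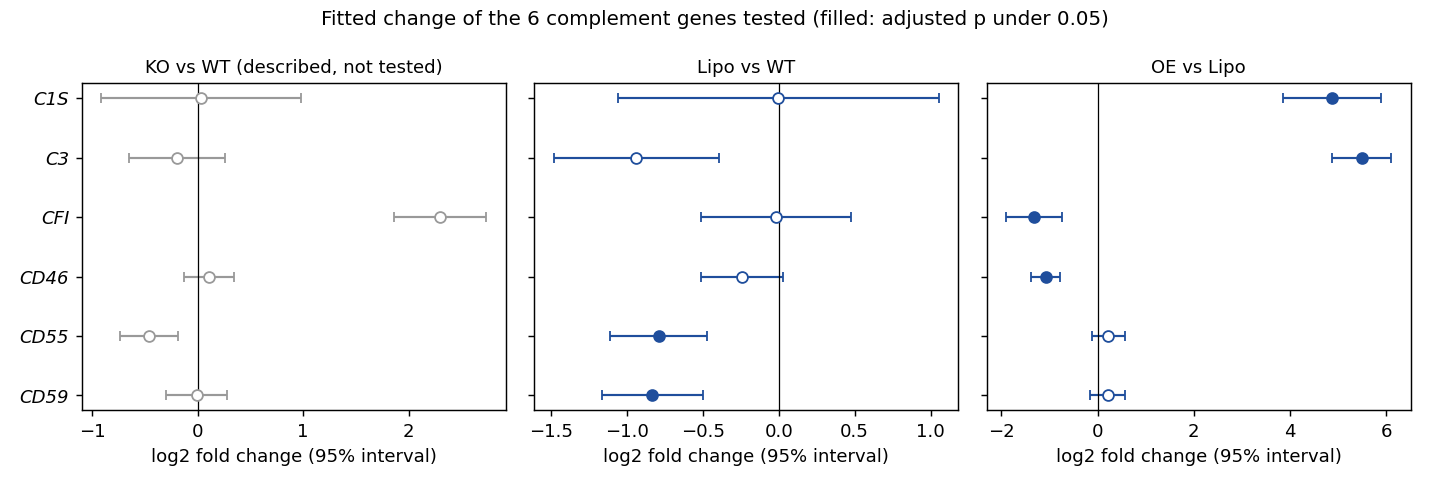
Fitted log2 fold change (horizontal axes, which differ between panels) with its 95% interval for the 6 complement genes tested, for KO against WT, Lipo against WT and OE against Lipo. Filled points passed an adjusted p of 0.05: C1S and C3 to the right and CFI and CD46 to the left in OE, and CD55 and CD59 to the left in Lipo; the grey points of KO are a description with no test.

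Other measures moved between OE and Lipo as well. Mitochondrially encoded genes took 4.74 to 4.89% of reads in OE and 8.04 to 8.72% in Lipo. The 10 macrophage and leukocyte markers summed to 3.60 to 4.18 CPM in OE and 1.82 to 2.37 CPM in Lipo. Of these, 8 had any read and TYROBP and AIF1 had none. CD68 had 2.07 and 3.36 CPM in OE against 1.08 and 0.593 in Lipo. CD14 was lower in OE (0.986 and 0.736 against 1.17 and 1.09), and PTPRC had 0 in both groups. The 7 fibroblast markers summed to 343 to 351 CPM in OE and 170 to 183 CPM in Lipo, almost all from COL1A1 and LUM, with DCN, PDGFRA and PDGFRB at 0. Distal lung markers summed to 5008 to 5053 CPM in OE and 5684 to 6138 in Lipo, endothelial markers, mostly KDR, to 90.2 to 102 CPM and 83.3 to 87.1, and epithelial markers to 13488 to 13619 CPM and 11436 to 12054. The distal lung sum came mostly from SFTPA1, SFTPA2 and SLC34A2. Within that list SFTPA1, SFTPA2, SFTPB and NAPSA were lower in OE. SLC34A2 was higher (1527 and 1529 CPM against 1247 and 1352 in Lipo), and NKX2-1 overlapped. The part of these measures in the complement results was not tested, and in such bulk samples fewer cells of a type and less RNA per cell cannot be told apart.

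In KO, CFI was the member that stood apart. It had 35.6, 29.8 and 30.5 CPM in KO 1 to 3 (806, 762 and 704 reads) and 8.18, 5.00 and 6.27 CPM in WT 1 to 3 (189, 131 and 143 reads). The lowest KO library was thus well above the highest WT library, and also above both Lipo libraries. The fitted difference was 4.93-fold (log2 2.30, SE 0.20), which moved CFI from 1.33 to 6.55 ± 0.647 RPKM and left it under CD59 in the order of levels. CFI is the gene for which the list was put forward, so this gives the value that chose it.

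CD55 was the other member with no overlap between KO and WT. It had 979, 671 and 758 CPM in KO 1 to 3 and 1185, 1070 and 1062 CPM in WT 1 to 3, a 1.38-fold lower level (log2 -0.46, SE 0.13). KO 1 lay closer to WT than to KO 2 and 3. Both Lipo libraries, at 651 and 628 CPM, lay under every KO library. With WT and Lipo together as the control the log2 difference was -0.20 (SE 0.21). Groups without overlap were seen for these 2 of 6 members and for 27.6% of all tested genes, and 12.6% of all tested genes were called in this comparison (5.13% higher and 7.45% lower).

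The other 4 members overlapped between KO and WT. CD46 differed by 0.11 on the log2 scale (95% interval -0.13 to 0.35), CD59 by -0.01 (-0.30 to 0.28), C3 by -0.20 (-0.65 to 0.26) and C1S by 0.03 (-0.92 to 0.98). CD59 had 191, 144 and 152 CPM in KO 1 to 3 and 186, 163 and 143 CPM in WT 1 to 3, so library 1 was the highest of both groups. The intervals are narrow for the 2 membrane proteins and wide for C1S, which had 41 reads over the 3 WT libraries and 41 over the 3 KO libraries. Fibroblast markers summed to 70.9 to 77.7 CPM in KO and 177 to 289 CPM in WT, macrophage markers to 0.485 to 2.51 and 1.26 to 1.80, distal lung markers to 8550 to 10766 and 9367 to 11442, epithelial markers to 8554 to 11681 and 11393 to 12633, and endothelial markers to 91.9 to 109 and 115 to 119. The fibroblast sum was almost all COL1A1 (56.9 to 68.7 CPM in KO and 156 to 272 in WT) and LUM, with DCN, PDGFRA and PDGFRB at 0. The endothelial sum was mostly KDR. The distal lung sum came mostly from SFTPA1 and SFTPA2. Within that list SFTPB had 39.1 to 57.6 CPM in KO and 180 to 218 in WT, and SLC34A2 433 to 494 and 1024 to 1566. NKX2-1, SFTPA1, SFTPA2 and NAPSA overlapped between KO and WT. The part of these markers was not tested.

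Over the 4 groups the level of CFI was thus 31.9 ± 3.16 CPM in KO and 6.48 ± 1.60 in WT (SD, n = 3 each), and 6.39 ± 0.317 in Lipo and 2.56 ± 0.765 in OE (n = 2 each). The WT and Lipo levels overlapped, with a log2 difference of -0.02 (95% interval -0.51 to 0.47; adjusted p = 0.979). That test shares its WT values with the comparison that chose the list, so it is not independent of the choice. Among the 10395 genes considered, those whose profile over the 10 libraries was closest to that of CFI were PLEKHS1, VTCN1 and F5. The root mean square difference of centred log2 CPM was 0.423, 0.463 and 0.538, where the profile of CFI itself has a root mean square of 1.34. VTCN1, a membrane ligand of the B7 family, had mean levels of 17.8 CPM in KO, 5.66 in WT, 8.20 in Lipo and 2.55 in OE, and F5 encodes coagulation factor V.

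The genes closest to C3 were IL32 (0.400), TNFRSF9 (0.502) and IFI44 (0.542), and those closest to C1S were MX2 (0.468), IFI44 (0.476) and CXCL3 (0.568), against own values of 1.99 for C3 and 1.96 for C1S. MX2 and IFI44 are interferon-induced genes, IL32 and CXCL3 encode a cytokine and a chemokine, and TNFRSF9 is a receptor of the TNF family. MX2 had a mean of 885 CPM in OE and 25.6 in Lipo, and IL32 206 and 7.89. Likeness to C3 or C1S is set almost wholly by the 2 OE libraries. CERK (0.0761), HP1BP3 (0.0939) and ATM (0.104) were closest to CD46, whose own value was 0.539.

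Lipo and WT carry the same treatment label, but 2 of the 6 members, CD55 and CD59, were lower in Lipo and 0 were higher. Beside this, 3.70% of all tested genes were called (1.32% higher and 2.38% lower). The median of the members was -0.52 on the log2 scale, against -0.02 over all genes, and 4 members did not overlap between the groups, as did 43.6% of all tested genes. CD55 was 1.73-fold lower (651 and 628 CPM against 1062 to 1185; log2 -0.79, SE 0.15; adjusted p = 0.00932). CD59 was 1.78-fold lower (90.4 and 93.4 CPM against 143 to 186; log2 -0.83, SE 0.16; adjusted p = 0.00917). The calls needed both Lipo libraries: without Lipo 2 the adjusted p was 0.109 for CD55 and 0.129 for CD59, and without Lipo 3 it was 0.190 and 0.141.

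C3 was at the edge of the threshold in Lipo. Both Lipo libraries lay under all 3 WT libraries (log2 -0.94, SE 0.25; adjusted p = 0.0563), and C3 passed with library size alone (0.0397), with DESeq2 (0.00880), with no filter on low counts (0.00124), and without WT 1 (0.0284), KO 1 (0.0155) or KO 2 (0.0481). CD46 lay lower in both Lipo libraries than in any WT library but did not pass (log2 -0.24, adjusted p = 0.328). C1S did not differ detectably (log2 -0.00, 95% interval -1.06 to 1.05; adjusted p = 0.999). The share of mitochondrially encoded genes was 5.47 to 6.15% in WT against the 8.04% or more in Lipo. Distal lung markers summed to 5684 to 6138 CPM in Lipo and 9367 to 11442 CPM in WT, endothelial markers to 83.3 to 87.1 and 115 to 119, fibroblast markers to 170 to 183 and 177 to 289, macrophage markers to 1.82 to 2.37 and 1.26 to 1.80, and epithelial markers to 11436 to 12054 and 11393 to 12633. The distal lung sum came mostly from SFTPA1 and SFTPA2, which were lower in Lipo, as were SFTPB and NKX2-1. SLC34A2 overlapped between Lipo and WT, and NAPSA was higher in Lipo (435 to 451 CPM against 343 to 433). The endothelial sum was mostly KDR. TEK was lower in Lipo too, while CDH5, PECAM1 and VWF overlapped. The part of these measures in the lower CD55 and CD59 was not tested.

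Of 53 other genes of the complement system, 22 had no read in any library, 18 had reads but too few to test, and 13 were tested. The 22 include C2, C4A and C4B, which lie in the low stretch around CFB described below, so their 0 gives no level. C1RL, among the 18, lies in the low stretch by C1R. SERPING1 and C8G passed the filter only through the group where each is highest, OE and KO, so they are described without a test and left out of the counts, which cover the other 11. In OE against Lipo 2 of these 11 were higher and 2 lower, beside the 6.79% and 5.53% of all tested genes, and their median log2 fold change was -0.13, against -0.01 over all genes. SERPING1, the inhibitor of the C1R and C1S proteases, had 236 and 247 reads in OE and 0 and 1 in Lipo (ratio of levels 528, exact 95% interval 94.3 to 20904, which covers counting error only). That size rests on 1 read and on the control: SERPING1 had 3 to 10 reads in each WT and KO library, and against WT the fitted log2 difference was 5.76. C8G, a subunit of the membrane attack complex, had 31 reads over the KO libraries, 6 over WT, 2 over Lipo and 4 over OE. SUSD4, a membrane regulator of complement, had 6.80 and 5.89 CPM in OE and 1.42 and 1.05 CPM in Lipo (log2 2.36, SE 0.41; adjusted p = 0.00153). WT stood between them at 3.03 ± 0.377 CPM, and against WT the log2 difference was 1.06 (adjusted p = 0.0329).

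ITGAM, the alpha chain of complement receptor 3, had 84 and 47 reads in OE and 1 and 6 in Lipo (log2 4.30, SE 0.82; adjusted p = 0.00320), and missed the threshold without OE 1 (0.0509). The log2 difference was 2.64 against WT (adjusted p = 0.00665), 3.49 without Lipo 2 and 6.06 without Lipo 3. C5, the component after C3, was lower in OE, at 1.13 and 1.79 CPM against 5.16 and 4.60 (log2 -1.73, SE 0.33; adjusted p = 0.00327), but not without OE 1 (0.0624). C4BPA, the alpha chain of C4b-binding protein, had 5 reads over WT, 6 over KO, 6 over Lipo and 0 over OE, too few to test. C4BPB, the beta chain, was lower in OE, at 11.3 and 13.7 CPM against 20.6 and 19.1 (log2 -0.66, SE 0.17, edgeR adjusted p = 0.0175). That call was lost without OE 1 (0.209), Lipo 2 (0.138) or Lipo 3 (0.0805), and against WT the log2 difference was -1.46 (adjusted p = 1.09e-05).

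In KO against WT, 1 of these 11 genes was higher and 0 were lower by edgeR, beside the 5.13% and 7.45% of all tested genes, with 2 at an unadjusted p under 0.05 and a median log2 fold change of 0.35 against 0.00 over all genes. C4BPB had 49.8, 45.6 and 52.5 CPM in KO 1 to 3 and 33.1, 33.8 and 36.8 CPM in WT 1 to 3 (log2 0.51, SE 0.13; adjusted p = 0.0176), and missed the threshold without WT 2 (0.0836). In Lipo against WT, C4BPB was the 1 gene of the 11 called, beside the 3.70% of all tested genes, and it was lower (log2 -0.80, SE 0.15; adjusted p = 0.00940), though not without Lipo 2 (0.0994) or Lipo 3 (0.205).

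**Figure D3:**
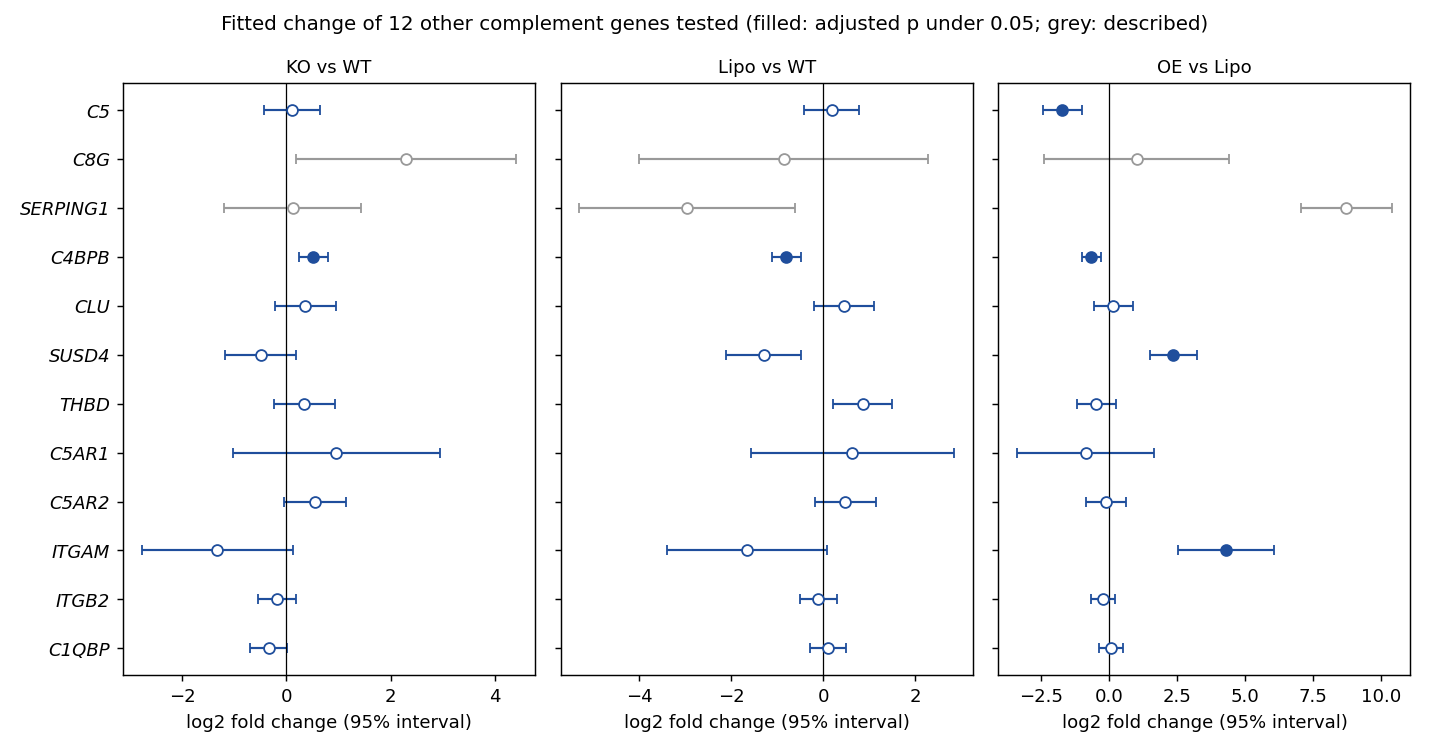
Fitted log2 fold change with its 95% interval (horizontal axes, which differ between panels) of 12 of the 13 other complement genes that could be tested, for KO against WT, Lipo against WT and OE against Lipo. Grey points (SERPING1 and C8G) are described without a test, and filled points passed an adjusted p of 0.05: SUSD4 and ITGAM higher and C5 and C4BPB lower in OE, C4BPB higher in KO and lower in Lipo.

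The 2 members left, CFB and C1R, could not be read. CFB (chromosome 6, 31945650 to 31952084, plus strand) was listed at 0 in all 10 libraries. Of the 28 protein-coding genes within 200 kb of it, 27 (96.4%) had under 10 reads in every library, against 35.9% of all 19854 protein-coding genes, and 21 had no read at all. Those at 0 include LSM2, EHMT2 and NEU1, which most cells use, and also the complement genes C2, C4A and C4B. The annotation of CFB overlaps those of C2 and AL645922.1, which also had no read. The highest count in the stretch was 54, for VARS. CFB shares its 0 with most of this stretch, so the table gives no level of CFB in these cells.

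C1R (chromosome 12, 7080199 to 7092607, minus strand), the partner protease of C1S, had 3 and 4 reads in OE 1 and 2, 1, 0 and 1 in KO 1 to 3, and 0 in the 3 WT and 2 Lipo libraries. A count of 0 allows up to 0.0416 CPM over the 3 WT libraries and 0.0653 CPM over the 2 Lipo libraries. Its neighbours were low on one side as well: C1RL reached at most 26 reads, RBP5 had 0, CLSTN3 at most 122 and PEX5, a receptor for import into peroxisomes that most cells use, at most 10. On the other side PHB2 had 4156 to 6351 reads and LPCAT3 621 to 1253. The annotations of C1R and C1RL overlap on the same strand. C1R thus had too few reads to set beside the rise of C1S, and what keeps these genes low in the table was not tested.

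**Figure D4:**
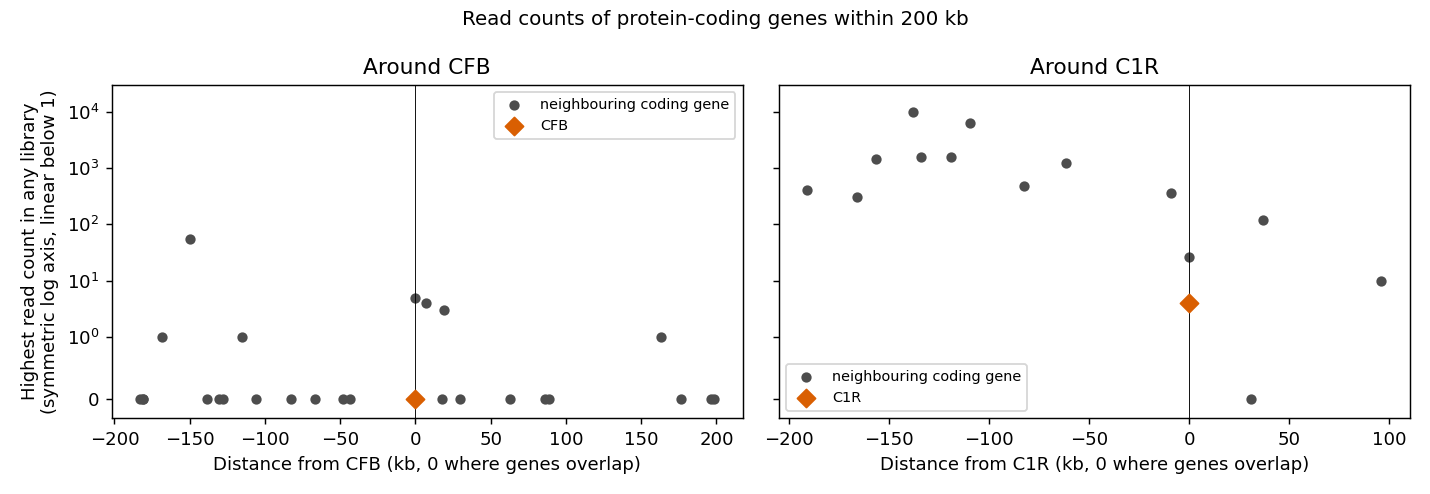
Highest read count in any of the 10 libraries (vertical axis, symmetric log scale that is linear below 1) of each protein-coding gene within 200 kb of CFB and of C1R, against its distance in kb (horizontal axis, 0 where genes overlap). Nearly all genes around CFB lie at or near 0, while around C1R the genes on the left reach 306 to 10014 reads, C1S among them with 355, and those on the right at most 122.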

How the data were processed

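The table deposited by the authors gives unnormalized counts, which are whole numbers of reads for each gene. Per the submitters' processing notes, HISAT2 2.1.0, FastQC, featureCounts, edgeR and GRCh38 were used, and per the labels the kit was a stranded total RNA kit. The table had 62710 entries (1 without values), and 2 columns that match no sample were not used here.

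Counts were tested with edgeR 4.0.16 in R 4.3.3: filterByExpr on the 4 groups (15832 genes kept), TMM scaling, and a robust quasi-likelihood fit of all 10 libraries with 6 residual degrees of freedom. Tests were two-sided, with Benjamini-Hochberg adjustment over all genes tested and a threshold of 0.05. CPM used TMM-scaled library sizes, with mean ± SD. RPKM used merged exon lengths of GENCODE 29 (GRCh38). Floors of 3 counts and intervals on ratios cover counting error only.

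Alternatives were no scaling beyond library size, RLE scaling, no filter, DESeq2 1.42.0, a filter of 1 CPM in 3 libraries with 100 reads in total, only the groups compared, no mitochondrial genes, other controls, the replicate number as a block, and each library left out. The members and lists were chosen with earlier results of these data known. All 8 members are named, with other complement genes that passed and the 3 genes closest in profile to a member (mean log2 CPM at least 2). A further complement gene, counted with the 13 tested, is not reported here.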

Additional observations from a re-analysis of the deposited data

How the results depend on the processing

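Direction and call of the members in OE against Lipo (4 of 6 called) held with each other scaling, filter and tool, apart from C1S under the stricter filter, where it was not tested, and the count was 3 to 4 with a library left out and 6 with only the groups compared or with WT as control. With WT in place of Lipo, CD55 (-0.57) and CD59 (-0.62) turned lower; the cause was not tested. The 2 members called in Lipo against WT became 0 to 3 with a library left out. Where 1 Lipo or OE library was left out, the lone one was assumed to vary like the other groups. Low reads limit C1S, C1R and SERPING1 outside OE.

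For other complement genes, the 1 call of KO against WT became 2 with DESeq2, no filter, only the groups compared or WT and Lipo together as the control (5 libraries), and 0 to 3 with a library left out. With SERPING1 included, the 5 calls of OE against Lipo became 3 under the stricter filter (which tested 10 genes), 6 with no filter, 7 with only the groups compared, and 2 to 5. The 1 call of Lipo against WT became 2 with DESeq2 or no filter, and 0 to 2.

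Over all genes, KO against WT had 1992 calls, 1216 with only the groups compared and 1125 to 2297 with a library left out. OE against Lipo had 1950, 5664 with only the groups compared, 3953 with WT as control, and 673 to 2657. Lipo against WT had 586, 992 with DESeq2, 1100 with no filter, and 34 to 977. Libraries of a group were not equally alike. The chi-square per degree of freedom between 2 libraries, larger for a less alike pair, was 4.87 in OE and 6.17 in Lipo. In WT it was 6.37 for WT 2 and 3 and 42.7 and 46.5 for WT 1 against them, and in KO 39.6 to 65.0. The main fit shares its estimate of spread over the 4 groups. The cause of the differing counts of calls was not tested.

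Same-numbered libraries of KO and WT correlated in their deviations at r = 0.328, 0.0577 and 0.185 across 15832 genes. KO and WT libraries of different numbers correlated at -0.238 to 0.0920. Each KO library correlated most with the WT library of its number, though WT 2 correlated most with KO 3 (0.0920). Same-numbered libraries of Lipo and WT correlated at -0.00725 and -0.0570. The labels name no batch or pairing, so the main fit used none, and whether the number marks pairs in KO and WT is not known. With the replicate number as a block, which also limits the fit to the groups compared, members called in Lipo against WT went to 4 (in a fit of 4 libraries), other complement genes to 3 in KO and 5 in Lipo, and all genes to 3368 in KO (1216 and 2 other complement genes in that fit without the block) and 3695 in Lipo. OE and Lipo share only the number 2. No paired analysis was possible because of that in OE against Lipo.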
